A study of Mus musculus with 9 samples.

Results

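The 8 genes *Esrrb*, *Tfcp2l1*, *Nr5a2*, *Tbx3*, *Zfp42*, *Nr0b1*, *Gbx2* and *Tcl1*, known as factors of the naïve state, were followed in RNA-seq counts by matching their symbols to the Ensembl IDs of the deposited count table. All 8 were found among its 54232 genes, and each was read in all 9 libraries. These were 2 libraries each of naïve mESCs at passage 5 (P5) and 15 (P15), 2 each of primed mEpiSCs at P5 and P15, and 1 of mouse embryonic fibroblasts (MEFs), with the C57 x CBA strain named for all of them. The methods describe the ESC line of this background as carrying a GFP transgene driven by the distal *Oct4* promoter, and name no second line of it. Naïve cells grew in S/L medium (serum and LIF) and primed cells, which had been converted from them, in F/A medium (Fgf2 and Activin A). Both grew on feeder cells, which the methods give as mitomycin C-treated MEFs. The libraries of a group are called biological repeats, but no source says whether they came from separate cultures, so that p-values measure the spread between these libraries, which may be technical.

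Naïve mESCs resemble the preimplantation epiblast, and their identity is held by a network of transcription factors that act downstream of LIF and Wnt signals and bind one another's enhancers. Primed mEpiSCs resemble the epiblast after implantation, keep *Oct4* and *Sox2*, and depend on FGF and Activin in place of LIF. Among the members, *Esrrb*, *Nr5a2* and *Nr0b1* encode orphan nuclear receptors, *Tfcp2l1* a grainyhead-like factor, *Tbx3* a T-box factor, *Gbx2* a homeodomain factor and *Zfp42* (*Rex1*) a zinc finger protein related to YY1. *Tcl1* is counted with them as a naïve gene, but its protein is a coactivator of the kinase Akt and not a DNA-binding factor.

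Total counts per library ranged from 14378051 to 20985136 in naïve and primed libraries, and MEFs had 25646547. Levels are given as CPM, which divide counts by a library size that TMM has adjusted. For a gene without counts, the upper limit is 3 counts, which is 0.148 to 0.221 CPM in a naïve or primed library, and this covers counting error only. Of 10 markers of the primed state, 9 were called higher in primed cells at P5 and 8 at P15, and none was called lower. This list was chosen with earlier results of these data known, so the count is no independent check of the state. Among all genes tested, 13.5% and 12.2% were called higher and 8.85% and 11.0% lower at P5 and P15. Called genes had an adjusted p below 0.01, by the quasi-likelihood test of edgeR, and at least a 2-fold change. Feeder RNA was traced by 15 fibroblast markers. Their median level was 16.4% to 19.1% of that of MEFs in naïve libraries. It was 17.9 to 18.1% in primed cells at P5 and 32.5 to 33.7% in primed cells at P15. Single markers differed widely, from 2.88% (*Col1a1*) to 220% (*Dcn*) in primed cells at P5. At P15 they ran from 9.69% (*Col1a1*) to 354% (*Dcn*) in primed cells. The median was taken as the feeder share, though the markers did not agree on it. None of the 15 was at 0, and their summed level was 6672 to 6676 CPM in naïve and 4081 to 4177 CPM in primed cells at P5, and 11830 to 12419 CPM and 10996 to 11426 CPM at P15.

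The regions before the gene starts are shown for *Zfp42*, which lost most of its naïve level in primed cells at P15, for *Esrrb*, whose window held the only other motif match, and for *Gbx2*, which departed from the others with passage. Each window runs from 250 bases before to 50 bases after a RefSeq start site on GRCm38.p6 and is written 5′ to 3′ on the strand of the gene. They lie at chr8:43306960-43307259, minus strand (*Zfp42*), chr12:86360867-86361166, plus strand (*Esrrb*, the first of its 2 start sites) and chr1:89931127-89931426, minus strand (*Gbx2*). Capitals mark matches to 7 short motifs searched on both strands.
Zfp42: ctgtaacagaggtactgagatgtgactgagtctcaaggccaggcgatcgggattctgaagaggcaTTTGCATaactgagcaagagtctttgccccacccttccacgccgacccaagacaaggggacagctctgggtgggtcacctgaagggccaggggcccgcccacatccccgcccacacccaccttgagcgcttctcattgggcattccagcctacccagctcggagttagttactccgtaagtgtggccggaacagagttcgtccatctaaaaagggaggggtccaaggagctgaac
Esrrb: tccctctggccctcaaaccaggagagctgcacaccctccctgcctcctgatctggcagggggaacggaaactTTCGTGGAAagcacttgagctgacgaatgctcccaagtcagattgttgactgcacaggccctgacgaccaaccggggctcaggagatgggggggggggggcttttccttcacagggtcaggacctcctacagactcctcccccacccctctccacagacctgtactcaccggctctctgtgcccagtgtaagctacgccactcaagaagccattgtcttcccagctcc
Gbx2: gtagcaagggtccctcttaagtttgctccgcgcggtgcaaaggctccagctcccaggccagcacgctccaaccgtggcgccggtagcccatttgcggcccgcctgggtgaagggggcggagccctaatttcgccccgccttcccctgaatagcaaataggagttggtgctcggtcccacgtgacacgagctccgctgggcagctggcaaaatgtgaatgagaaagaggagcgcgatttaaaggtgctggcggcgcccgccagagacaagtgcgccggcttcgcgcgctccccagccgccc
The motifs were AAGGTCA, an element bound by Esrrb and Nr5a2, GGTGTGA for T-box factors, TAATTA for homeodomain factors, CCATNTT for the YY1 family, ATGCAAA for octamer factors, ATCAAAG for TCF/LEF factors and TTCNNNGAA for STAT factors, with N for any base. Over the 9 windows of the 7 members in the table (*Tbx3* was not among them), the octamer motif was found once, in *Zfp42* at 185 bases before the start, and the STAT motif once, in *Esrrb* at 178 bases before it. These motifs are in 4.6% and 8.3% of all 32851 windows of this kind. AAGGTCA, in 4.7% of all windows, was in none of the 9, which says only that these letters are absent there, and the *Gbx2* window had no match to any of the 7.

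The first question was how far each factor fell on conversion. At P5 and at P15, all 8 members were called lower in primed than in naïve cells, against 8.85% of the 16482 genes tested at P5 and 11.0% of the 15733 at P15. The median log2 fold change of the members was −3.06 at P5 and −6.94 at P15, where that of all genes tested was 0.0078 and −0.0039. Of the genes past both thresholds at P5, 60.4% were higher in primed cells, and scaling by library size alone made it 72.6%, with a median log2 fold change of all genes of 0.21. Of the 15 fibroblast markers, 3 were called higher and 5 lower in primed cells at P5, and 4 and 1 at P15, where 13.5% and 12.2% of all genes tested were called higher. After subtraction of the feeder share, all 8 members were called lower at both passages. All members but *Tbx3* had 0 to 20 counts in the MEF library. The subtraction therefore took few counts from them and could hardly have changed these calls. In bulk RNA, fewer cells that express a gene and less of its RNA per cell cannot be told apart.

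**Figure D1:**
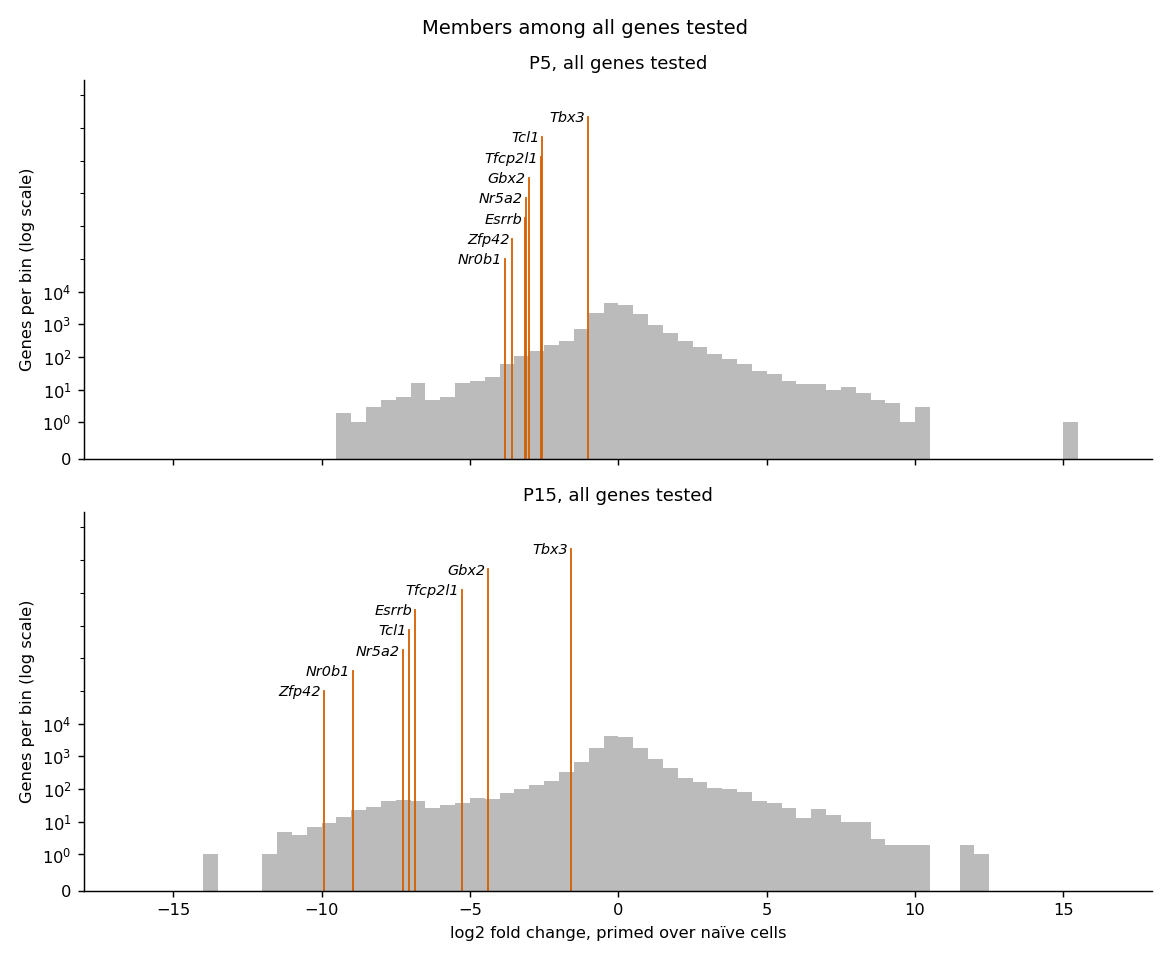
Number of genes (log scale) by log2 fold change between primed and naïve cells in bins of 0.5, at P5 (top) and P15 (bottom), with vertical lines at the 8 members; the height of a line only makes room for its name. All 8 lines lie left of 0, from −3.83 to −1.03 at P5 and spread out from −9.93 to −1.59 at P15.

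Of the nuclear receptors, *Esrrb* (ENSMUSG00000021255, GRCm38 chromosome 12, 86361117 to 86521628) was at 527 and 503 CPM in the naïve libraries of P5 and 466 and 462 CPM in those of P15. In primed libraries it was at 56.9 and 57.7 CPM at P5 and 4.59 and 3.52 CPM at P15. The 2 passages of naïve cells thus lay close together, while primed cells at P15 were far below primed cells at P5. *Esrrb* kept 11.1% of its naïve level at P5 and 0.874% at P15. Its log2 fold change was −3.14 (standard error 0.042, edgeR adjusted p = 3.36e-31) at P5 and −6.85 (standard error 0.094, edgeR adjusted p = 9.99e-37) at P15. Standard errors were taken from the test's F statistic and can lie below counting error where counts are few. The protein of *Esrrb* binds regulatory regions of many other naïve genes and can stand in for *Nanog* in reprogramming.

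*Nr5a2* (ENSMUSG00000026398, GRCm38 chromosome 1, 136842571 to 136960448), whose protein binds a motif like that of Esrrb, was at 44.3 and 47.4 CPM in naïve cells at P5 and 41.4 and 39.0 CPM at P15. Primed libraries held 5.22 and 5.16 CPM at P5, and at P15 only 5 and 4 counts, or 0.287 and 0.227 CPM, beside 0.340 CPM (8 counts) in the MEF library. The primed share of the naïve level was 11.3% and 0.639% at the 2 passages, with a counting interval (exact, 95%) of 0.292% to 1.22% for the latter. These shares were close to those of *Esrrb* at both passages. The log2 fold changes were −3.11 (edgeR adjusted p = 1.79e-21) and −7.26 (edgeR adjusted p = 2.44e-26).

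*Nr0b1* (*Dax1*, ENSMUSG00000025056, GRCm38 chromosome X, 86191764 to 86195947) encodes a receptor without the usual DNA-binding domain, known mainly as a corepressor. Naïve libraries held 85.0 and 81.8 CPM at P5 and 100.5 and 101 CPM at P15, and primed libraries 6.56 and 4.83 CPM at P5. At P15 the primed libraries held 7 counts and 0 counts, so that the 2 libraries differ in whether the gene was seen at all. Pooled, they held 0.198% of the naïve level, with a counting interval of 0.0796% to 0.409%. *Nr0b1* had the largest fall of the 8 at P5, with a log2 fold change of −3.83 (standard error 0.090, edgeR adjusted p = 5.50e-25). Its −8.94 at P15 became −13.63 without primed P15 replicate 1, which left a lone library at 0 and a value set by the prior count of the fit, and −7.95 without primed P15 replicate 2.

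*Zfp42* (ENSMUSG00000051176, GRCm38 chromosome 8, 43295063 to 43306980) is widely used as a reporter gene of the naïve state. It was at 213 and 206 CPM in naïve cells at P5, 232 and 227 CPM at P15 and 17.6 and 17.0 CPM in primed cells at P5. In primed cells at P15, 4 counts were left in each library, and the MEF library held 0. This left 0.0996% of the naïve level, with a counting interval of 0.0430% to 0.196% that overlaps that of *Nr0b1*, down from 8.24% at P5. Of all genes tested at P15, 0.114% had a more negative log2 fold change than its −9.93 (edgeR adjusted p = 6.15e-36). At P5 its value was −3.57 (edgeR adjusted p = 1.21e-29).

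*Tfcp2l1* (ENSMUSG00000026380, GRCm38 chromosome 1, 118627945 to 118685168) is a target of LIF and STAT3 signalling. Its naïve libraries held 230.3 and 231 CPM at P5 and 222 and 218 CPM at P15, and its primed libraries 38.2 and 36.4 CPM and 5.85 and 5.51 CPM. With 16.2% and 2.59% of the naïve level left, it was kept to a larger share than *Esrrb* at both passages. The counting intervals of the 2 genes (2.24% to 2.98% against 0.735% to 1.03% at P15) did not overlap, but they cover counting error only. The log2 fold changes were −2.60 (edgeR adjusted p = 7.98e-28) and −5.28 (edgeR adjusted p = 5.67e-34). The 1 annotated gene that shares exon bases with *Tfcp2l1*, *Gm23497*, had 0 counts in every library.

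*Tcl1* (ENSMUSG00000041359, GRCm38 chromosome 12, 105216750 to 105222793) was at 33.8 and 36.4 CPM in naïve cells at P5 and 32.0 and 29.7 CPM at P15. Primed libraries held 6.36 and 5.21 CPM at P5 and 4 counts each at P15, and MEFs held 0. The share of the naïve level, 16.5% at P5, was near that of *Tfcp2l1*, but at P15 *Tcl1* was down to 0.739% (counting interval 0.319% to 1.47%), below *Tfcp2l1*. Its log2 fold changes were −2.56 (edgeR adjusted p = 1.48e-18) and −7.04 (edgeR adjusted p = 1.35e-24).

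*Tbx3* (ENSMUSG00000018604, GRCm38 chromosome 5, 119670669 to 119684724) was the least changed member and the one clearly expressed in MEFs, at 989 counts or 42.1 CPM. It was at 74.6 and 72.4 CPM in naïve cells at P5, 83.8 and 75.7 CPM at P15, and 34.5 and 35.7 CPM and 27.9 and 25.3 CPM in primed cells. Both primed libraries lay below both naïve libraries at each passage, and the MEF library lay above all 4 primed ones. The log2 fold changes were −1.03 (standard error 0.059, edgeR adjusted p = 1.17e-15) and −1.59 (standard error 0.084, edgeR adjusted p = 8.35e-19), so that 47.8% and 33.4% of the naïve level were left. Scaled by library size alone, the P5 value was −0.83 (edgeR adjusted p = 1.03e-11), under a 2-fold change, and over the alternatives the adjusted p at P5 reached at most 2.08e-05. Feeder RNA in the amount of the median fibroblast marker corresponds to 13.7 to 14.2 CPM of *Tbx3* in the primed libraries of P15. In the amount of the lowest marker, *Col1a1*, it corresponds to 4.08 to 4.47 CPM. The highest marker, *Dcn*, was at 341% and 354% of its MEF level there, so that these amounts are no upper limit. With the median share taken off all libraries, the log2 fold changes were −1.19 at P5 and −2.23 at P15. The antisense gene *Tbx3os1* shares 115 exon bases with *Tbx3* and held at most 34 counts in a naïve or primed library.

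*Gbx2* (ENSMUSG00000034486, GRCm38 chromosome 1, 89927956 to 89931179), a LIF and STAT3 target that is also known from the developing midbrain and hindbrain, had the lowest naïve level per kb of exon at P5. Naïve libraries held 14.2 and 12.3 CPM at P5 and 33.5 and 29.7 CPM at P15, with no overlap between the passages. Primed libraries held 1.94 and 1.22 CPM at P5 and 1.78 and 1.25 CPM at P15, which do overlap. The log2 fold changes between the states were −3.02 (standard error 0.19, edgeR adjusted p = 2.12e-14) and −4.39 (standard error 0.18, edgeR adjusted p = 1.71e-22). *Gbx2* shares 946 of its 2177 exon bases with *D130058E05Rik* on the opposite strand. The methods name no setting for strand, and the reads of these 2 genes may not be told apart. *D130058E05Rik* itself was at 5.27 and 5.39 CPM in naïve cells at P5, 4.93 and 5.31 CPM at P15, and at most 0.746 CPM in primed cells.

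**Figure D2:**
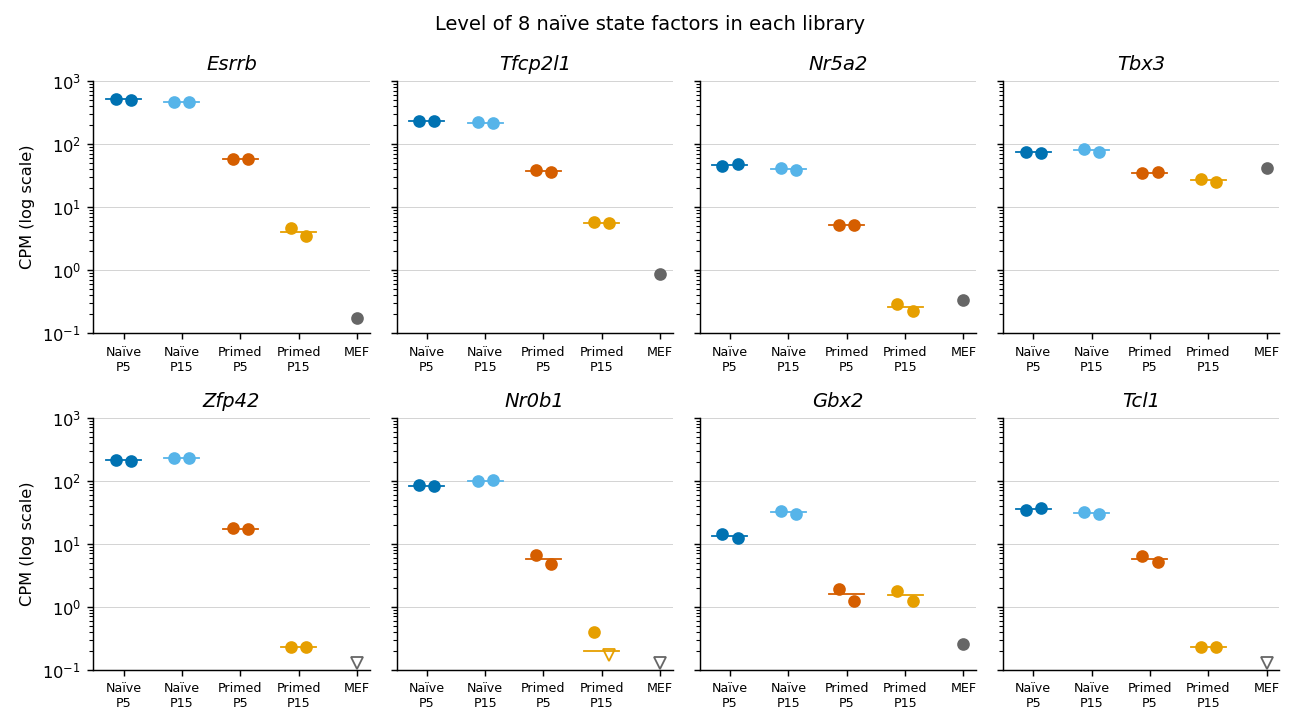
Level of each member in CPM (log scale) in the 2 libraries of each state and passage and in the MEF library. Points are libraries, short lines are group means, and open triangles mark libraries with no count, drawn at the level of 3 counts. In 6 panels (all but *Tbx3* and *Gbx2*) primed cells at P15 lie far below primed cells at P5, while naïve cells at P5 and P15 stay close.

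The same counts were then compared between passages within each state, so that these comparisons share their libraries with those of the states. In naïve cells, 1 of 8 members was called, *Gbx2*, which was higher at P15, where 0.414% of 15683 genes tested were called higher and 0.721% lower. *Gbx2* rose 2.39-fold, with a log2 fold change of 1.25 (standard error 0.11, edgeR adjusted p = 5.00e-06). *Nr0b1* passed the adjusted p alone, with a log2 fold change of 0.28 (edgeR adjusted p = 0.00266). The other 6 had log2 fold changes between −0.19 (*Nr5a2*) and 0.13 (*Zfp42*) with adjusted p from 0.0232 (*Esrrb*) to 0.283 (*Tfcp2l1*). Between the passages, the fibroblast markers of naïve cells also differed, with 4 of 15 called higher and 1 lower at P15. After subtraction of the feeder share, *Gbx2* was still the 1 member called, with a log2 fold change of 1.31, and *Nr0b1* had 0.33.

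In primed cells, 6 of 8 members were called lower at P15 than at P5, against 8.43% of 15957 genes tested, with 3.18% called higher. The falls were 6.57-fold for *Tfcp2l1*, 14.1-fold for *Esrrb*, 20.2-fold for *Nr5a2*, 25.3-fold for *Tcl1*, 28.3-fold for *Nr0b1* and 75.7-fold for *Zfp42*. Each adjusted p of these 6 was 4.25e-10 or lower. The falls of *Zfp42*, *Tcl1* and *Nr5a2* rest on 8, 8 and 9 counts in all at P15 and are known only roughly. The value of *Nr0b1* rests on 7 counts in 1 library. Its log2 fold change of −4.82 became −9.74 without primed P15 replicate 1 and −3.84 without primed P15 replicate 2, and DESeq2's Wald test did not call it (adjusted p = 0.0195, the highest over its alternatives). *Tbx3* had a log2 fold change of −0.43 (standard error 0.084, edgeR adjusted p = 8.74e-05), short of 2-fold. *Gbx2* had −0.10 (standard error 0.34, edgeR adjusted p = 0.813), from 61 counts in all at P5 and 53 at P15. Fibroblast markers were higher in primed cells at P15 than at P5, 8 of 15 past both thresholds and none lower. After subtraction of the feeder share, the same 6 members were called lower. Their MEF counts were only 0 to 20, so that little was taken off them and this is a weak check.

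**Figure D3:**
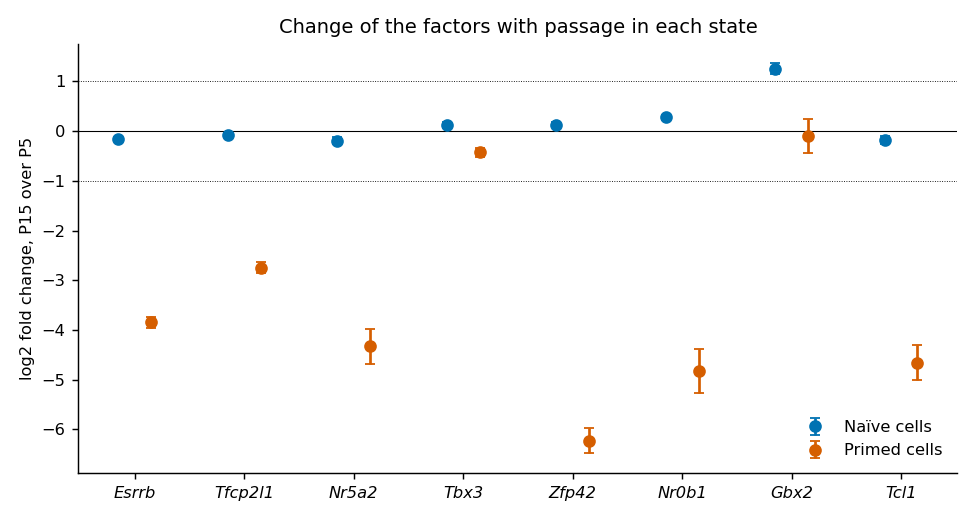
Log2 fold change of each member between P15 and P5 in naïve cells (blue) and in primed cells (orange), with dotted lines at a 2-fold change. Bars show 1 standard error taken from edgeR's F statistic, which can be narrower than counting error where counts are few. Orange points of 6 members lie between −6.23 and −2.75, those of *Tbx3* and *Gbx2* lie within the dotted lines, and the blue point of *Gbx2* lies above 1.

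Whether the difference between the states itself grew with passage was tested in a fit of all 8 naïve and primed libraries. For 7 of 8 members the effect was called more negative at P15, against 4.80% of 16926 genes tested, with 2.36% called more positive. The difference of log2 fold changes (P15 minus P5) was −6.35 for *Zfp42* (edgeR adjusted p = 6.73e-21) and −3.69 for *Esrrb* (standard error 0.11, edgeR adjusted p = 8.46e-23). It lay at −5.09 for *Nr0b1*, −4.47 for *Tcl1*, −4.13 for *Nr5a2* and −2.67 for *Tfcp2l1*. That of *Nr0b1* was −9.97 without primed P15 replicate 1. For these 6 the primed level was called lower at P15 and the naïve level was not called. For *Gbx2* the difference was −1.36 (standard error 0.32, edgeR adjusted p = 0.00129), with a naïve level that rose and a primed level that was not called. This call of *Gbx2* was lost without primed P5 replicate 1 (−0.99, edgeR adjusted p = 0.0841), without primed P15 replicate 2 (−1.12, edgeR adjusted p = 0.0196) and with the feeder share taken off (−1.13, edgeR adjusted p = 0.0279). *Tbx3* had −0.54 (edgeR adjusted p = 9.58e-05), short of 2-fold, and −1.01 (edgeR adjusted p = 1.60e-04) with the feeder share taken off, where it was called.

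**Figure D4:**
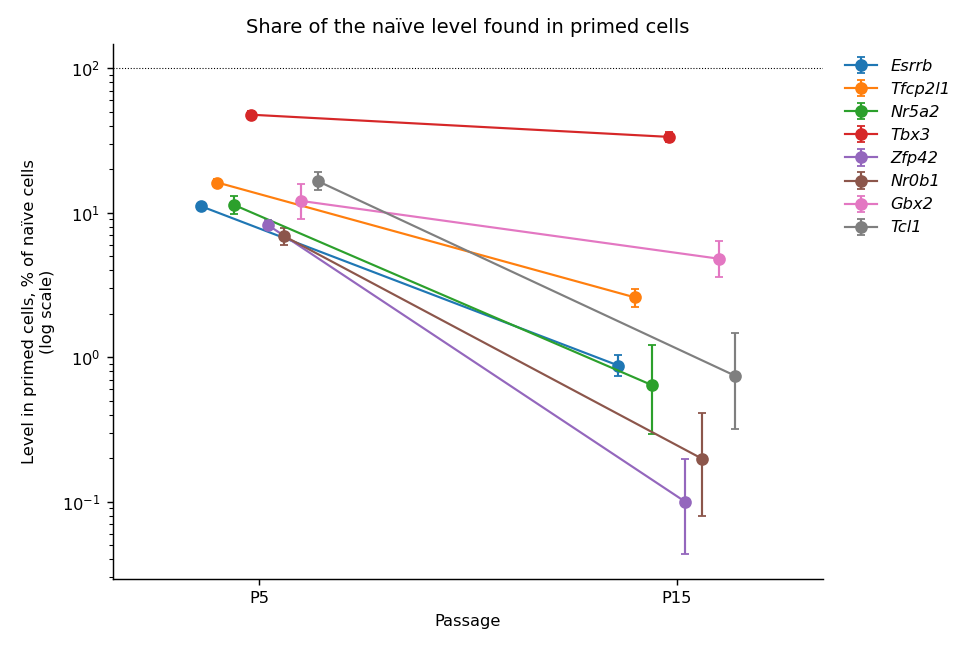
Level in primed cells as a percentage of the level in naïve cells of the same passage (log scale) for the 8 members at P5 and P15, from the pooled counts of 2 libraries each, with bars for exact 95% counting intervals. The shares span 6.88% to 47.7% at P5 and 0.0996% to 33.5% at P15, with *Tbx3* highest at both.

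Members were ordered by their level per length, as CPM per kb of annotated exon sequence. In naïve cells at P5 the order was *Zfp42* (113 and 109.7 CPM per kb), *Esrrb* (87.2 and 83.2), *Nr0b1*, *Tfcp2l1*, *Tcl1*, *Tbx3*, *Nr5a2* and *Gbx2* (6.53 and 5.64), and the libraries of neighbours did not overlap at any step. At P15 the order in naïve cells was the same, except that *Gbx2*, at 15.4 and 13.7 CPM per kb, stood above *Tbx3*, at 12.7 and 11.4. In primed cells at P5, *Esrrb* and *Zfp42* led at 9.42 and 9.54 and at 9.35 and 9.02 CPM per kb. *Tbx3* and *Tfcp2l1* followed, while *Nr0b1* and *Tcl1* overlapped, as did *Nr5a2* and *Gbx2*. In primed cells at P15, *Tbx3* led alone at 4.22 and 3.82 CPM per kb. *Gbx2*, *Esrrb* and *Tfcp2l1* overlapped between 0.574 and 0.817 CPM per kb, and *Tcl1*, *Zfp42*, *Nr0b1* and *Nr5a2*, with 0 to 7 counts a library, were too close to the limit of counting to be ordered. Summed over the 8 genes, the level was 1182 to 1223 CPM in naïve libraries, 163 to 167 CPM in primed cells at P5 and 36.3 to 41.3 CPM in primed cells at P15. Of the sums left in primed cells at P15, *Tbx3* made 27.9 and 25.3 CPM. These sums were not divided by length.

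**Figure D5:**
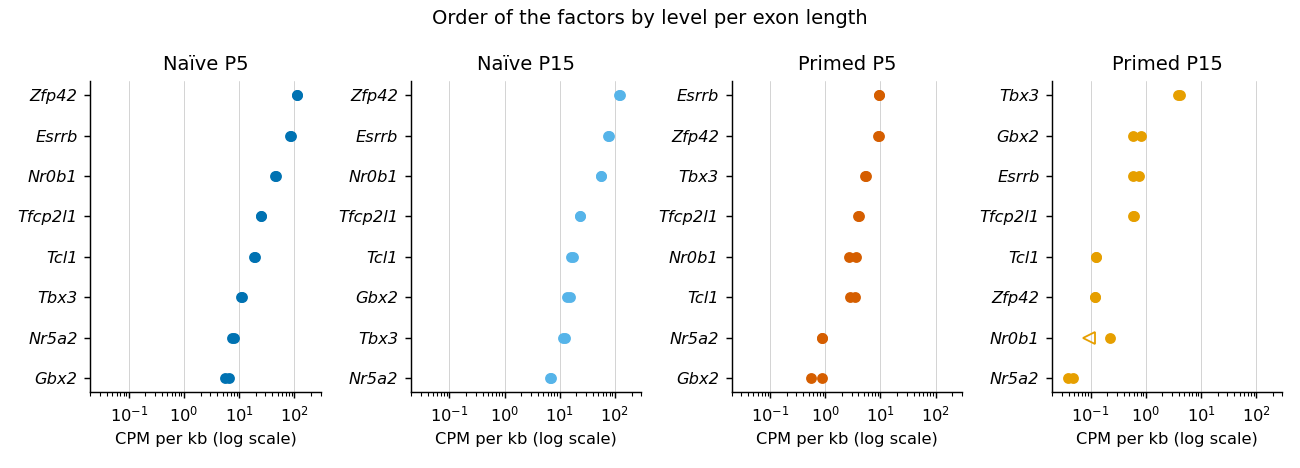
Level of each member in CPM per kb of exon sequence (log scale) in the 2 libraries of each state and passage, ordered by the group mean from top to bottom. The open triangle marks the library of *Nr0b1* with no count, drawn at 3 counts. *Zfp42* is first in naïve cells at both passages, and *Tbx3* is first in primed cells at P15.

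Likeness of pattern was measured as the root mean square distance between log2(CPM + 1) profiles, each centred over the 8 naïve and primed libraries. With this pseudocount of 1, which narrows differences between low levels, *Tfcp2l1* lay nearest among the members to *Nr5a2* (0.121) and *Tcl1* (0.151), and *Tbx3* and *Zfp42* lay farthest apart (2.46). Among all 9996 named genes with a mean of at least 10 CPM, the nearest to *Esrrb* were *Rbmxl2* (0.150), the noncoding RNA gene *Lncenc1* (0.167) and *Dppa4* (0.233). The nearest to *Zfp42* was *Tdh* (0.163), which encodes threonine dehydrogenase, followed by *Rbmxl2* and by *Dnmt3l*, a cofactor of the de novo DNA methyltransferases. *Tfcp2l1*, *Nr5a2* and *Tcl1* shared *Tdrd12*, a gene of the piRNA pathway in germ cells, at 0.104, 0.132 and 0.178. Besides it, *Triml2* was among the 3 nearest to *Nr5a2* and *Mreg* among those nearest to *Tcl1*.

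*Nr0b1* had *Dppa2* (0.333), *Mymx* and *Rbmxl2* as its nearest genes, and *Tbx3* had *Zfp993* (0.062), *Fam208a*, a subunit of the HUSH silencing complex, and *Ubxn2a*. *Gbx2* stood near *Halr1* (0.134), a noncoding RNA gene beside the *Hoxa* cluster, and then at a wider gap from *Thbs1* (0.351) and *Myh11*. With a pseudocount of 0.1 in place of 1, *Gbx2*, *Tbx3* and *Zfp42* kept 2 of their 3 nearest genes, *Esrrb* kept 1, and the other 4 members kept 0. At 0.1, *Esrrb* and *Nr5a2* became the nearest genes to each other (0.068, from 0.618 with 1), and neither *Nr5a2* nor *Tcl1* was among the 3 nearest to *Tfcp2l1*. These distances describe 8 libraries in 4 groups and carry no test.

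Other genes of the naïve network, not all of them regulators, were described from a list of 15 genes. At P5, 12 of the 15 were called lower in primed cells, with a median log2 fold change of −1.72, and at P15, 10 were, with a median of −2.10, against 8.85% and 11.0% of all genes tested. *Klf2* (log2 fold change −4.30 and −4.45 at P5 and P15) and *Klf4* (−3.96 and −3.34), Krüppel-like factors of the naïve network, were called lower at both passages. *Prdm14*, a repressor of FGF signalling and DNA methylation, had −2.91 and −3.93. *Nanog* and *Pou5f1* (*Oct4*) were called lower at P5 (−2.01 and −1.72) but not at P15 (−0.62 and −0.35). At P15 both were lower but short of 2-fold (edgeR adjusted p = 1.35e-11 and 5.41e-07). *Sall4*, *Stat3* and *Tfe3*, a transcription factor that activates *Esrrb*, were called at neither passage. By adjusted p alone, 14 of the 15 were lower in primed cells at each passage. *Stat3* was the exception and was higher at P15 (0.21).

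The change with passage of these 15 genes was tested in the same fit of 8 libraries. Of the 15, against 4.80% and 2.36% of all genes tested called more negative and more positive, the effect was called more negative at P15 for *Fgf4* (−3.53), *Dppa3* (−2.43) and *Klf5* (−1.31), and more positive for *Nanog* (1.40, edgeR adjusted p = 6.95e-17) and *Pou5f1* (1.39, edgeR adjusted p = 1.21e-18). In primed libraries *Nanog* was at 92.6 and 93.7 CPM at P5 and 246 and 266 CPM at P15, and *Pou5f1* at 211 and 211 CPM and 612 and 583 CPM. In the same libraries, 6 members were lower at P15 than at P5. The median difference was −3.91 for the 8 members, −0.12 for the 15 genes of the list and −6.50e-05 for all genes tested.

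Regulators known to act in the exit from the naïve state formed a second list of 15 genes. At P5, 3 were called higher in primed cells and 2 lower, and at P15, 3 and 3, against 13.5% and 12.2% of all genes tested called higher and 8.85% and 11.0% called lower at P5 and P15. *Otx2*, which directs enhancers to the primed state, rose (2.73 at P5 and 2.77 at P15), as did *Pou3f1* (1.13 and 1.90) and *Zic2* (1.30 and 1.64). *Tcf7l1*, known as a repressor of *Esrrb* and *Tfcp2l1*, was at 71.1 and 73.2 CPM in naïve and 84.6 and 87.6 CPM in primed cells at P5, with log2 fold changes of 0.29 and 0.54 that were under 2-fold. The FGF-responsive *Etv4* was called lower at both passages (−1.35 and −1.38) and *Etv5* at P5 (−1.45). *Rbpj* and *Grhl2* were called lower at P15 alone, *Grhl2* with −0.33 at P5 and −3.49 at P15.

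Relatives of the members by gene family were also followed, to see whether the falls were shared within families. Of 18 relatives, 9 had enough counts to be tested at each passage. Against 8.85% of all genes tested called lower at P5 and 11.0% at P15, *Gbx1* was called lower at both (−2.77 and −4.98), from at most 17 counts a library. *Mtcp1*, related to *Tcl1*, was called higher at P5 (1.15), as were 13.5% of all genes tested. *Esrra*, related to *Esrrb*, was at 33.2 and 32.8 CPM in naïve and 30.0 and 31.8 CPM in primed cells at P5, with log2 fold changes of −0.06 and −0.17. *Tfcp2* (0.11 and 0.17) and *Ubp1* (−0.18 and −0.34), of the family of *Tfcp2l1*, and *Yy1* (0.03 and 0.25), the relative of *Zfp42*, were likewise not called. *Tbx2*, *Tbx4* and *Tbx5* were not called at either passage and stayed at or under 4.30 CPM in naïve and primed libraries. *Nr5a1*, *Nr0b2*, *Esrrg*, *Yy2* and the 5 *Tcl1b* genes of the list were not tested, with at most 12 counts in a naïve or primed library.

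Some members are also expressed in other embryonic cell types, so that markers of those types were read beside them. Of all genes tested, 13.5% were called higher and 8.85% lower in primed cells at P5, and 12.2% and 11.0% at P15. Of 10 trophoblast markers, 6 were tested, 2 were called higher in primed cells at P5, none lower, and 1 lower at P15, and their summed level was 16.0 to 21.5 CPM in naïve libraries, 42.9 to 45.9 CPM in primed cells at P5 and 17.7 to 17.9 CPM in primed cells at P15. *Tpbpa* was at 0 counts in all of them and *Elf5* held at most 3 counts a library. Of 10 neural markers, 9 were tested, and 4 were called lower and 3 higher at P5, and 4 and 2 at P15, with sums of 179 to 243 CPM in naïve and 243 to 311 CPM in primed libraries. Of 10 primitive endoderm markers, 9 were tested and 6 were called higher and 1 lower at each passage, with sums of 1498 to 2535 CPM in naïve libraries, 1262 to 1785 CPM in primed libraries and 10281 CPM in MEFs. Most of that sum was *Sparc*, at 1026 and 1016 CPM in naïve cells at P5 and 7969 CPM in MEFs, and *Col4a1*, which were not called, while the endoderm factors *Foxa2* (6.30 and 8.67), which is also on the list of primed markers, and *Sox17* (5.74 and 5.16) rose. The marker called lower at each passage was *Lama1*. It averaged 78.7 CPM in naïve and 25.7 CPM in primed cells at P5, and 44.1 and 7.22 CPM at P15. These genes of the endoderm list were named once their values had been seen. Of 10 germ cell markers, 9 were tested and 6 called lower at each passage, and the sum was 112 to 147 CPM in naïve libraries, 40.5 to 42.0 CPM in primed cells at P5 and 21.1 to 21.9 CPM at P15. Their part in the values of the members was not tested.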

How the data were processed

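RNA-seq of 9 libraries was used, grouped by the deposited sample titles, and the early and late columns of the count table were taken as P5 and P15 after the series' design text. The deposited values are raw counts per Ensembl gene, which the authors made from poly(A) RNA by trimming with Cutadapt, alignment to mm10 with HISAT2 (-k 20) and counting with featureCounts. The annotation release, strand setting and treatment of reads with several alignments are not given in the sources used here. Spike-in entries, 92 in number, had 0 counts and were not used. No column of the table belonged to another series.

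Computations used R 4.3.3 with edgeR 4.0.16 and DESeq2 1.42.0. Genes reaching 10 counts in 2 or more of the fitted libraries were tested with the quasi-likelihood test of edgeR, with TMM scaling, in fits of the 4 libraries of a comparison or, for the difference of effects, of 8. The Benjamini-Hochberg adjustment ran over all genes tested, and the adjusted p-values called edgeR's come from this test. CPM used TMM over all 9 libraries, the shares of the naïve level were ratios of group means or of pooled counts, and the MEF library entered no fit. Fitted log2 fold changes carry edgeR's small prior count. Their standard errors were taken from the test's F statistic and can lie below counting error where counts are few or the fold change is large. Names, coordinates and exon lengths came from GENCODE M21 (GRCm38), in which 54079 of the 54232 IDs had a name, and windows at gene starts from RefSeq. Members, lists, motifs and tests were chosen with earlier results of these data known. Every listed gene could be named, together with the 3 genes nearest to each member in pattern, and overlapping genes were chosen once their values had been seen. The code was tested on simulated counts. Alternatives were a fit of all 8 libraries, subtraction of the feeder share, a replicate block, tests without the filter on low counts, scaling by library size alone or by DESeq2's size factors, DESeq2's Wald test and each replicate left out, where a lone library is assumed to vary like the others.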

Additional observations from a re-analysis of the deposited data

Results flagged for a closer look

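The difference between primed and naïve cells changed with passage, by the test of the difference itself, for *Esrrb* (−3.69), *Tfcp2l1* (−2.67), *Nr5a2* (−4.13), *Zfp42* (−6.35), *Nr0b1* (−5.09), *Gbx2* (−1.36), *Tcl1* (−4.47), given as the log2 fold change at P15 minus that at P5. For *Gbx2* this was called in the fit of all libraries. It was lost without primed P5 replicate 1, without primed P15 replicate 2 and with the feeder share taken off.

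The MEF library, which entered no comparison, held more than the 3 counts that a count of 0 allows for *Esrrb* (4 counts), *Tfcp2l1* (20 counts), *Nr5a2* (8 counts), *Tbx3* (989 counts), *Gbx2* (6 counts). Of these, *Tbx3* is far above the rest, and the others lie between 4 and 20 counts in a library of 25646547. No group had enough libraries to look for an outlying library.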

How the results depend on the processing

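Over the 5 comparisons, 472 log2 fold changes of members were recomputed under alternatives, and 466 kept their call, with no called value changing direction. The 6 others were *Tbx3* at P5, which fell short of 2-fold with library size alone (−0.83), *Tbx3* in the difference of effects, called with the feeder share taken off (−1.01), *Gbx2* in the difference of effects, lost with the feeder share taken off (−1.13), without primed P5 replicate 1 (−0.99) and without primed P15 replicate 2 (−1.12), and *Nr0b1* between the passages of primed cells, lost by DESeq2's Wald test (−4.86, adjusted p = 0.0195). With genes of low counts kept in, 43 genes were called higher at P15 in naïve cells in place of 65, in a test over more genes. Leaving out replicates gave 1771 to 2139 genes called higher and 1161 to 1399 lower at P5, and 1746 to 1868 higher and 1601 to 1762 lower at P15. For *Nr0b1* it gave log2 fold changes from −13.63 to −7.95 at P15. Undivided by length, *Esrrb* and not *Zfp42* came first in naïve cells.

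Libraries of the same replicate number share only a number, as the labels name no common source. Deviations of same-numbered libraries correlated at −0.146 to 0.116 over 14426 genes, and with only 2 numbers in a group no hint of pairing can be had. With the replicate number as a block, 2216 genes were called higher and 1447 lower at P5 and 1761 and 1608 at P15, 85 and 144 between passages of naïve cells, 521 and 1402 of primed cells, and 388 and 776 in the difference of effects, and no member changed its call. Crossed pairs at P15, tried after seeing the data, gave 1915 and 1732.

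Members with under 10 counts in a primed library at P15 (*Nr5a2*, *Zfp42*, *Nr0b1* and *Tcl1*) have shares known no better than their counting intervals. These intervals cover counting error only. Between the 2 libraries of a group, a chi-square averaged 2.05 to 3.15 per gene, more than counting error alone gives. With 2 libraries a group, the spread between cultures stays unknown. The cause of these changes was not tested.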

Other observations

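Mean levels are given for several genes that lay near the members in pattern. *Tdh* averaged 272 CPM in naïve cells at P5, 28.4 CPM in primed cells at P5, 284 CPM in naïve cells at P15 and 0.543 CPM in primed cells at P15. In the same order, *Dnmt3l* averaged 217, 32.2, 246 and 0.859 CPM, and the noncoding RNA gene *Lncenc1* 230.1, 31.7, 213 and 1.86 CPM. *Rbmxl2*, which encodes an RNA-binding protein known from the testis, went from 106 CPM in naïve to 10.6 CPM in primed cells at P5, and from 112 CPM to 0 counts in either primed library at P15. *Halr1* was the gene nearest to *Gbx2*, and with 12.5 CPM in naïve cells at P5 and 28.5 CPM at P15 it too was higher in late naïve cells, while primed cells averaged 1.06 CPM and 1.06 CPM. These genes were chosen for their likeness to the members, and no test was made of them.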
